A study of Mus musculus with 6 samples.

Results

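The report covers 9 mouse genes, 5 sialic acid-binding lectins (Siglecf, Siglece, Siglecg, Siglec1 and Cd33) and 4 eosinophil genes (Ccr3, Il5ra, Epx and Prg2), out of 18749 genes in the deposited files. Members were found by gene symbol, and all 9 had a row. The set was chosen by the levels of Siglecf, selected on its difference between the 2 groups in these same libraries, and the eosinophil genes were added to see whether eosinophil transcripts went with it. The difference between the groups is therefore described for the members and not tested. RNA of aortas was sequenced from Apoe-/- recipients of Apoe-/-Sept2C111A marrow (Sept2C111A recipients, n = 3) and from Apoe-/- recipients of Apoe-/- marrow (control recipients, n = 3). Host and donor cells alike lacked apolipoprotein E in both groups, and all recipients received angiotensin II by infusion over 28 days, a regimen under which such mice can form aortic aneurysms. By its name Sept2C111A exchanges a cysteine of septin-2 for alanine, and the study asked about nitrosylated septin-2 of macrophages in aneurysm formation. It was carried by donor marrow, so cells of the aortic wall that do not derive from marrow kept the host genotype. The labels give no age, sex or share of donor cells, and do not say whether each library came from a single aorta.

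Siglecs are receptors on leukocytes that bind sialic acid at the ends of glycans. Most carry tyrosine motifs in their tails that recruit the phosphatases SHP-1 and SHP-2 and so damp activating signals. Siglec-F is known in the mouse from eosinophils and alveolar macrophages. Eosinophils mature under interleukin-5, enter tissue along CCR3 ligands, and store the peroxidase Epx and the major basic protein Prg2 in their granules. The granule transcripts are made mainly while the cells mature in marrow.

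Levels are given in CPM (expected counts scaled to library size, with TMM factors). Libraries held 17082719 to 20494928 expected counts, so by library totals without TMM factors 1 CPM stood for 17.1 to 20.5 counts. A count of 0 allowed up to 3 counts, or 0.146 to 0.176 CPM by the same totals. These conversions are approximate for the levels given: with TMM factors, 3 counts of Prg2 in Sept2C111A library 3 were 0.167 CPM, in place of 0.176. Smooth muscle markers (Acta2, Myh11, Tagln, Cnn1 and Smtn) summed to 15000 to 22700 CPM in Sept2C111A recipients and 5630 to 17700 CPM in control recipients. Fibroblast markers summed to 4510 to 6330 CPM in Sept2C111A recipients and 2740 to 3160 CPM in control recipients, and endothelial markers to 478 to 1110 CPM and 530 to 940 CPM, so defining markers of the aortic wall were present in both groups. Control 1 stood apart in neutrophil markers and control 3 in its low smooth muscle sum, so the fold changes that control 1 moved most are also given without it. Only 6 of the 9 members passed the filter on low counts. Siglecf passed through the control libraries alone, and Ccr3, Epx and Prg2 did not pass.

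Siglecf was nearly absent from every Sept2C111A library. It had 3, 3 and 2 expected counts in the Sept2C111A libraries, against 201, 115 and 67 in control libraries 1, 2 and 3. On the CPM scale these were 0.158, 0.166 and 0.111 in Sept2C111A recipients and 11.2, 6.02 and 3.31 in control recipients. The groups did not overlap: the lowest control lay 20.0-fold above the highest Sept2C111A library, and every Sept2C111A library lay at or below the 3 counts that a count of 0 allows. Siglecf averaged 0.145 ± 0.029 CPM in Sept2C111A recipients and 6.85 ± 4.02 CPM in control recipients (SD, n = 3 each). Summed over libraries there were 8 against 383 counts, 46.2-fold lower in Sept2C111A recipients, with an exact 95% interval of 23.2 to 108 that covers counting error only. The fitted log2 fold change, Sept2C111A minus control, was -5.50 (SE 0.61), and it ran from -5.83 to -4.94 when each library was left out in turn. In these bulk samples, fewer cells of a type and less RNA per cell cannot be told apart.

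**Figure D1:**
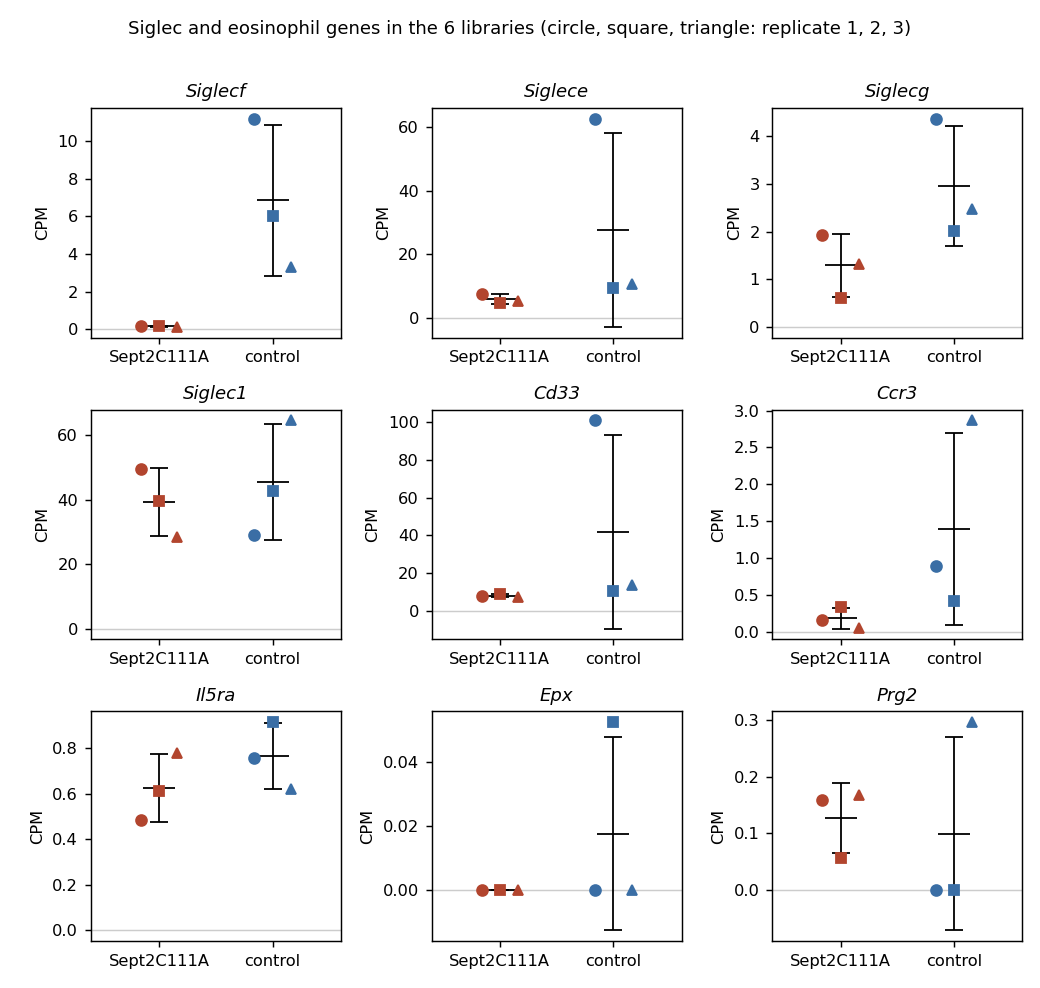
Level in CPM (linear axes) of each member in the 6 libraries, Sept2C111A recipients in red and control recipients in blue, with the mean and SD over 3 libraries in black. Siglecf lies at 0.111 to 0.166 CPM in Sept2C111A recipients and at 3.31 to 11.2 CPM in control recipients, while Siglece and Cd33 are set apart mainly by control 1.

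The granule genes of eosinophils were at or under 3 counts in every Sept2C111A library and in all control libraries but 1, in which Prg2 had 6. Epx, eosinophil peroxidase, had 0 counts in each Sept2C111A library, and 0, 1 and 0 counts in control libraries 1, 2 and 3. Prg2, major basic protein, had 3, 1 and 3 counts in Sept2C111A recipients and 0, 0 and 6 counts in control recipients. Prg2 was at most 0.297 CPM in any library, and the ratio of Prg2 counts, 1.21 (exact 95% interval 0.348 to 4.36), leaves its direction unresolved at this depth. Control library 1, with the most Siglecf of all 6, held 0 counts of both Epx and Prg2.

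Both eosinophil receptors were low. The groups were apart for Ccr3, which was at or under 3 counts in 2 of the 3 Sept2C111A libraries, and overlapped for Il5ra, a contrast between the genes that was not tested. Ccr3, the receptor for the eotaxins, had 3, 6 and 1 counts in Sept2C111A recipients and 16, 8 and 58.1 counts in control recipients, or 0.182 ± 0.14 and 1.39 ± 1.3 CPM (SD, n = 3 each). The groups did not overlap, but the lowest control at 0.421 CPM lay only 1.27-fold above the highest Sept2C111A library at 0.332 CPM. Ccr3 was highest in control 3, where Siglecf was the lowest of the controls, and its log2 fold change from the fit without a filter was -2.89 (SE 0.94). By DESeq2 it ran from -3.71 to -1.85 with a library left out. Il5ra, the ligand-binding chain of the interleukin-5 receptor, was at 0.485, 0.612 and 0.780 CPM in Sept2C111A recipients and 0.759, 0.916 and 0.623 CPM in control recipients. These ranges overlapped, and the log2 fold change was -0.32 (SE 0.37). The 4 eosinophil members together summed to 0.8, 0.998 and 1.0 CPM in Sept2C111A recipients and to 1.65, 1.39 and 3.79 CPM in control recipients.

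Siglece and Cd33 were lower in Sept2C111A recipients too, but most of that distance came from 1 library. Siglece, an inhibitory Siglec of neutrophils and macrophages in the mouse, was at 7.71, 4.91 and 5.26 CPM in Sept2C111A recipients and 62.7, 9.41 and 10.7 CPM in control recipients. Cd33, its myeloid relative, was at 7.76, 8.99 and 7.10 CPM in Sept2C111A recipients and 101, 10.5 and 13.7 CPM in control recipients. Both genes kept the groups apart, by 1.22-fold for Siglece and 1.17-fold for Cd33 between the nearest libraries, with control 1 far above the other 5. Their log2 fold changes were -2.20 (SE 0.79) and -2.38 (SE 0.90), and without control 1 they were -0.74 and -0.59. Siglecf, by contrast, stood at -4.94 without control 1. In CPM, Cd33 was 1.01 to 1.83 times Siglece in Sept2C111A libraries and 1.12 to 1.6 times in control libraries. Over the control libraries Siglece alone spanned 6.66-fold and Cd33 9.58-fold.

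Siglecf and Cd33 lie in the same gene cluster, and their start regions are shown because they share sequence while their levels separated so differently. The windows run from 250 bases before to 50 bases after the gene start (RefSeq, build GRCm38.p6, the assembly also called mm10) at chr7:43351091-43351390 on the plus strand for Siglecf and chr7:43533122-43533421 on the minus strand for Cd33. The Cd33 window is set on base 43533171, where the GENCODE transcript Cd33-203 starts, and a longer transcript, Cd33-202, starts 11257 bases upstream at 43544428. Capitals mark the 3 runs of at least 12 bases that both windows hold in the same orientation.
Siglecf: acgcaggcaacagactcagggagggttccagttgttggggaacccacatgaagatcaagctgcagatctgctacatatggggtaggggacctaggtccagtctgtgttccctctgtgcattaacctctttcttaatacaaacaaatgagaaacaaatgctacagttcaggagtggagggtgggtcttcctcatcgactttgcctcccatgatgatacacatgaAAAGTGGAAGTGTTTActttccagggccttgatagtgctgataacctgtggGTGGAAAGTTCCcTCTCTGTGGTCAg
Cd33: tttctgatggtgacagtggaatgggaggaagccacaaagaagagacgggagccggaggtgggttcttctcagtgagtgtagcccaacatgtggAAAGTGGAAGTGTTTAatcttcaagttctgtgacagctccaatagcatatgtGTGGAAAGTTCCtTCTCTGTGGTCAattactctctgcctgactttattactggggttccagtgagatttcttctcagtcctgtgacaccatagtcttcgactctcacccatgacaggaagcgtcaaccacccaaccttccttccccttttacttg
The longest run, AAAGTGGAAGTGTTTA (16 bases), had its first base at -27 from the start of Siglecf and at -157 from that of Cd33, and it was found in 2 of 32851 promoter windows. The other runs, GTGGAAAGTTCC and TCTCTGTGGTCA (12 bases each), were in 2 and 4 windows. The runs were picked because the Siglecf and Cd33 windows share them. Each count therefore includes these 2 windows and could not be under 2. The runs keep their order and nearly their spacing, lying 130, 129 and 129 bases further upstream in Cd33. The ETS-type core GAGGAA, searched on both strands, occurred in the windows of 6 of the 7 members with an entry (all but Epx) and in 28.3% of all windows. A member counted if any of its windows held the core, whereas the share is over single windows. Siglecg held the core 2 times in a window starting at 43407989 and 0 times in another starting at 43408030. Only the string GAGGAA was searched. The shorter GGAA was not counted, and it also occurs in the Epx window and in the longest run. The GATA-type core AGATAA, searched on both strands, occurred in the windows of Ccr3 and Il5ra and in 11.2% of all windows. Only that string was searched. TGATAA, which differs in its first base, was not counted, and it occurs in the Siglecf window. TTGCNNAA, a C/EBP-type core, occurred in 0 of the 7 and in 10.8% of all. These are matches of letters and show no binding.

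Siglecg, which restrains the B cell receptor, was low in all libraries. It was at 1.93, 0.617 and 1.33 CPM in Sept2C111A recipients and 4.37, 2.01 and 2.48 CPM in control recipients, with the nearest libraries only 1.04-fold apart. Its log2 fold change was -1.18 (SE 0.52), and -0.77 to -1.58 with single libraries left out. Summed B cell markers were at 2.56 to 9.04 CPM in Sept2C111A recipients and 11.1 to 34.2 CPM in control recipients, with all 6 markers lower on average in Sept2C111A recipients, and their part in the Siglecg level was not tested. Siglec1, sialoadhesin, a long Siglec of tissue macrophages that lacks the inhibitory tail motif, was at 49.5, 39.7 and 28.4 CPM in Sept2C111A recipients and 29.1, 42.8 and 64.7 CPM in control recipients. The groups overlapped. Its log2 fold change was -0.22 (SE 0.33), and it lay between -0.44 and 0.13 with single libraries left out. Control 1, the highest library for Siglecf, Siglece, Siglecg and Cd33, was the lowest control for Siglec1.

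Counting over members, the Sept2C111A libraries lay wholly below the control libraries for 5 of the 9 (Siglecf, Siglece, Siglecg, Cd33 and Ccr3), wholly above for 0, and the groups overlapped for 4. Of all 14466 genes tested, 11.9% lay wholly below and 11.2% wholly above. Ccr3, Epx and Prg2 did not pass the filter and are not among those genes. Of the 6 members that passed, Siglecf, Siglece, Siglecg and Cd33 lay wholly below. With adjustment over all genes, edgeR's quasi-likelihood test called 0 of the 6 members that passed the filter and 0 of 14466 genes (0.0%), while 2170 (15.0%) had an unadjusted p under 0.05. DESeq2 called 1 of the 6 members for which it gave an adjusted p, Siglecf, and 549 of 15431 genes (3.56%). It withheld the p-value of Cd33. With 1 library left out at a time, DESeq2 called Siglecf in each of the 6 fits, Siglece and Cd33 in the fits without control 2 and without control 3, Ccr3 in the fit without control 2, and Siglecg, Siglec1, Il5ra, Epx and Prg2 in none. Over all genes DESeq2 called 1.56%, 4.41% and 0.745% without Sept2C111A libraries 1, 2 and 3, and 2.21%, 11.4% and 2.25% without controls 1, 2 and 3. Since this contrast chose the members, nothing is read from these counts.

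Between genes, levels were compared as mean CPM per kilobase of exon. In Sept2C111A recipients the order was Siglec1 (5.49), Siglece (3.22), Cd33 (1.02), Siglecg (0.269), Il5ra (0.175), Prg2 (0.151), Ccr3 (0.0555), Siglecf (0.0519) and Epx (0.0). The ranges over libraries overlapped between neighbours in this order, apart from Cd33, which lay clear of Siglece above it and Siglecg below it, and Epx, which was at 0.0 throughout. In control recipients the order was Siglece (14.9), Siglec1 (6.37), Cd33 (5.35), Siglecf (2.46), Siglecg (0.614), Ccr3 (0.426), Il5ra (0.214), Prg2 (0.118) and Epx (0.0064). There each neighbouring pair overlapped except Siglecf and Siglecg: Siglecf was at 1.19 or more and Siglecg at 0.910 or less. Siglecf lay above Siglecg, Ccr3, Il5ra and Prg2 in the means of control recipients and below all of them in those of Sept2C111A recipients.

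The Siglecs absent from the member list showed no such separation. Cd22, the B cell Siglec, was at 4.52 to 10.3 CPM in Sept2C111A recipients and 4.40 to 10.9 CPM in control recipients (log2 fold change -0.26, SE 0.46). Mag, a Siglec of myelinating glia, was at 0.612 to 1.52 CPM in Sept2C111A recipients and 1.16 to 1.58 CPM in control recipients. Siglech, of plasmacytoid dendritic cells, was at 1.95 to 3.02 CPM in Sept2C111A recipients and 1.07 to 2.93 CPM in control recipients. Siglec15, a Siglec known from osteoclasts, did not pass the filter. All 4 overlapped between the groups, with 0 edgeR calls, 0 at an unadjusted p under 0.05 and 0 DESeq2 calls.

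On chromosome 7, Siglecf (43351341 to 43359531, plus strand), Siglecg (43408204 to 43418358, plus strand), Cd33 (43524216 to 43544428, minus strand) and Siglece (43651070 to 43660161, minus strand) lie within 309 kb (mm10, GENCODE vM21). None overlapped another annotated gene. Of 15 other genes with a row in this span and 100 kb on each side, 7 were tested and their log2 fold changes ran from -0.01 (Vsig10l, SE 0.25) to 0.67 (Etfb, a mitochondrial electron carrier subunit, SE 0.26), against -5.50 to -1.18 for the 4 Siglecs among them. None of the 7 was called by edgeR, 2 had an unadjusted p under 0.05 (Etfb and Zfp658, beside 15.0% of all genes), and 2 lay wholly above the controls (Zfp715 and Zfp658, beside 11.2%). DESeq2 called 2 low-count gene models next to Cd33, beside 3.56% of all genes. 4931406B18Rik was at 0 in all Sept2C111A libraries and at 2.45, 0.0436 and 0.378 CPM in the controls (adjusted p = 0.0489). Gm2511 was likewise at 0 in the Sept2C111A libraries and at 3.57, 0.0526 and 0.198 CPM in the controls (adjusted p = 0.0464). Both were highest in control 1, as Cd33 was. Without control 1 they averaged 0.211 CPM (4931406B18Rik) and 0.125 CPM (Gm2511) in the controls.

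**Figure D2:**
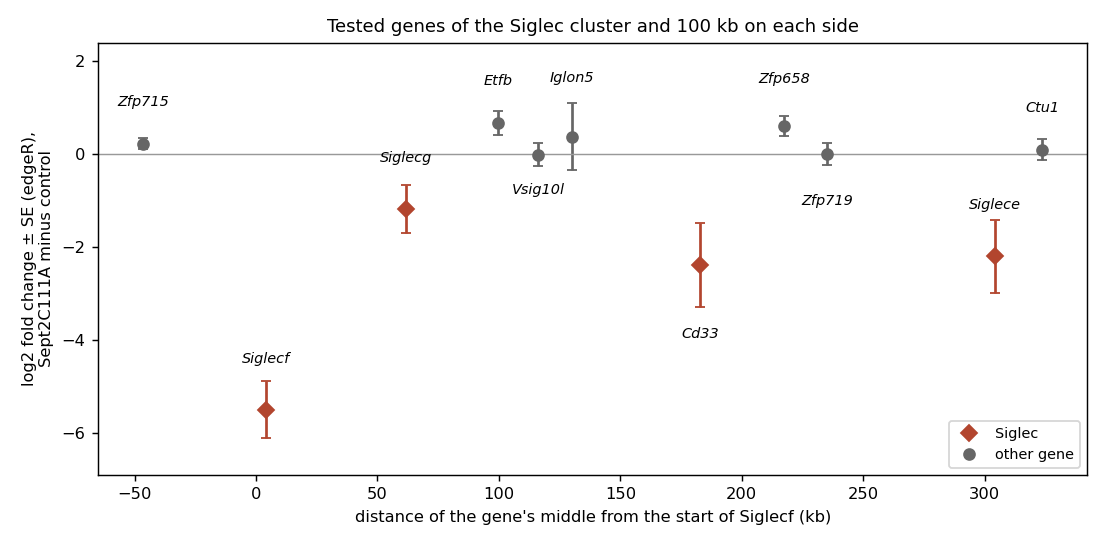
Log2 fold change (Sept2C111A minus control, edgeR) with SE for the tested genes in and around the Siglec cluster, against the distance of each gene's middle from the Siglecf start in kb. The 4 Siglecs (red diamonds) lie at -5.50, -1.18, -2.38 and -2.20, and the 7 other genes (grey circles) between -0.01 and 0.67.

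Genes with a pattern like that of Siglecf were ranked by the root mean square difference between log2(CPM + 0.1) values over the 6 libraries, each gene centred on its own mean, among genes with a mean count of at least 20. Among 13496 genes compared, whose median difference was 2.41, the 5 nearest were Hmox1, which degrades haem (0.82), Dpp6, an accessory subunit of potassium channels (0.85), Sh2d5 (0.86), Clec4d, a C-type lectin of myeloid cells (0.95), and Entpd3, which breaks down extracellular nucleotides (0.97). Dpp6 was at 0.0, 0.221 and 0.0556 CPM in Sept2C111A recipients and 3.68, 1.31 and 3.07 CPM in control recipients. Entpd3 was at 0.158, 0.111 and 0.278 CPM in Sept2C111A recipients and 21.4, 1.47 and 4.35 CPM in control recipients. Because all 6 libraries enter the difference, it mainly follows the fold between the groups, on which Siglecf was chosen. All 5 genes lay wholly below the controls in Sept2C111A recipients. Dpp6, Sh2d5 and Entpd3 had at most 4, 9 and 5 counts in any Sept2C111A library and reached the mean count of 20 through the controls. Regulation shared with Siglecf was not tested. In all 5 genes control 2 was the lowest control, whereas Siglecf was lowest in control 3. The members were farther away, from 1.61 (Siglece), 1.67 (Cd33) and 1.71 (Ccr3) to 2.82 (Prg2). Ccr3, Il5ra, Epx and Prg2 were under the mean count of 20, so their distances rest on few counts and are not like for like. The ranking depends on how low values are weighted: with a pseudocount of 1, 0 of these 5 remained among the nearest 5, and with a mean count of at least 50, 4 did.

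Among the marker lists, neutrophil and B cell sums were lower in every Sept2C111A library than in every control, fibroblast sums were higher in every one, and the other lists overlapped. Neutrophil markers summed to 28.8, 16.7 and 20.0 CPM in Sept2C111A recipients and 2920, 89.4 and 333 CPM in control recipients, with 10 of 10 lower on average in Sept2C111A recipients. In control 2 the neutrophil sum was 3.11-fold above its highest Sept2C111A library, and Siglecf was 36.3-fold above its own. These folds are not comparable. The highest Sept2C111A value of Siglecf was 3 counts, the floor, so its fold is poorly measured. Of the neutrophil sum of 28.8 CPM in Sept2C111A library 1, 18.7 CPM was Csf3r. Siglecf in the controls ran 1, 2, 3 from high to low, the neutrophil sum 1, 3, 2. The part of neutrophils in the Siglecf level was not tested.

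Eosinophil markers (7 of 8 with a row) summed to 10.2, 2.93 and 6.07 CPM in Sept2C111A recipients and 4.89, 3.18 and 6.07 CPM in control recipients. Ear2, a ribonuclease gene that monocytes and macrophages also transcribe, was at 9.40, 1.87 and 5.06 CPM and 3.18, 1.79 and 2.17 CPM in the same order of groups. It made up most of the sum in every library but control 3, where Ccr3 was higher at 2.87 CPM. The Ear genes are near-identical copies, so their single values are uncertain. The defining markers Epx, Ear1 and Ear6 had at most 3 counts in every library. Without Ear2 the other 6 markers summed to 0.8, 1.06 and 1.0 CPM in Sept2C111A recipients and 1.71, 1.39 and 3.89 CPM in control recipients. Those sums, in a split made after the values were seen, did not overlap, with the lowest control 1.31-fold above the highest Sept2C111A library, and members of the set (Ccr3, Il5ra, Epx and Prg2) make up most of them. Alveolar macrophage markers overlapped, at 41.8 to 99.4 CPM in Sept2C111A recipients and 46.7 to 258 CPM in control recipients. Of these, Chil3, a chitinase-like protein that neutrophil precursors also make, was at 2.63, 1.88 and 6.68 CPM in Sept2C111A recipients and 195, 5.10 and 25.8 CPM in control recipients, and Marco, a scavenger receptor, at 0.158, 0.553 and 0.0 CPM against 1.0, 0.263 and 7.07 CPM. Plet1, the only one of the 7 with the groups apart, was at 0.058 to 0.0778 CPM in Sept2C111A recipients and 0.176 to 2.19 CPM in control recipients. Krt79 and Pparg had the higher mean in Sept2C111A recipients, at 3.56 against 1.89 CPM and 46.8 against 30.0 CPM, with overlapping groups. Pparg alone, at 53.0, 25.9 and 61.4 CPM, made up most of the alveolar macrophage sum in every Sept2C111A library. In control recipients it was at 42.2, 29.3 and 18.6 CPM, so the overlap of the sums rests largely on 1 gene. General macrophage markers were at 1340 to 2010 CPM and 1440 to 2900 CPM, basophil markers at 0.0553 to 0.788 CPM and 0.210 to 0.897 CPM, and tuft cell markers at 25.0 to 72.4 CPM and 68.8 to 127 CPM, each with the Sept2C111A recipients' range first and each overlapping. Mcpt8, which defines basophils, did not exceed 0.346 CPM in any library. Dclk1, at 21.8 to 67.6 CPM in Sept2C111A recipients and 59.9 to 124 CPM in control recipients, made up most of the tuft cell sum in every library. The tuft cell marker Trpm5 did not exceed 0.198 CPM, and Il25 did not exceed 0.0558 CPM. T cell markers were at 1.0 to 3.52 CPM in Sept2C111A recipients and 2.01 to 3.30 CPM in control recipients. With Sept2C111A recipients again first, adipocyte markers were at 270 to 761 CPM and 99.1 to 329 CPM. Erythroid markers were at 202 to 708 CPM and 70.6 to 1680 CPM, and plasmacytoid dendritic cell markers at 2.48 to 32.5 CPM and 2.75 to 4.8 CPM. Most of the 32.5 CPM was Cox6a2, at 29.4 CPM in Sept2C111A library 3 and at 0.263 and 0.0553 CPM in libraries 1 and 2. Siglech was at 2.51 CPM in Sept2C111A library 3.

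**Figure D3:**
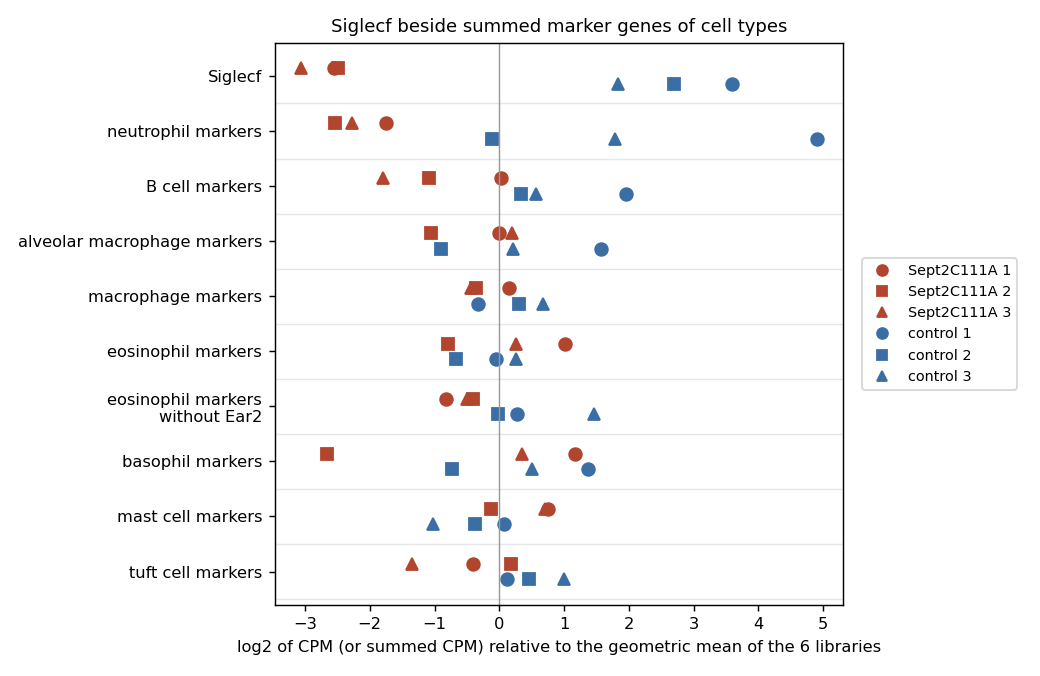
Level of Siglecf and summed CPM of 8 marker lists in each library, the eosinophil list also without Ear2, as log2 relative to the geometric mean of the 6 libraries, Sept2C111A recipients in red above control recipients in blue and replicates 1, 2 and 3 as circle, square and triangle. Siglecf, neutrophil and B cell markers and the eosinophil markers without Ear2 separate the groups, while the basophil, alveolar macrophage and full eosinophil lists overlap.

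Genes that make, trim or answer to Siglec ligands were followed as a list of 39, of which 38 had a row and 32 were tested. After adjustment over all genes edgeR called 0 of the 32, with 6 lower and 1 higher at an unadjusted p under 0.05 (8.83% and 6.17% of all genes). The median log2 fold change was -0.19, against 0.00 over all genes tested. DESeq2 called 0 higher and 4 lower of 33, beside 0.894% and 2.66% of all genes. All 4 were signalling partners, not glycan enzymes. Inpp5d, the lipid phosphatase SHIP1 of blood cells, was at 38.5, 29.4 and 28.6 CPM in Sept2C111A recipients and 168, 60.4 and 90.8 CPM in control recipients (-1.72 on the log2 scale, SE 0.38, adjusted p by DESeq2 = 0.00324). Tyrobp, the activating adaptor DAP12 used by Siglec-H and Siglec-15, was at 72.5, 45.5 and 44.4 CPM in Sept2C111A recipients and 235, 83.8 and 155 CPM in control recipients (-1.54, SE 0.40, DESeq2 adjusted p = 0.0150). Lyn, a kinase that phosphorylates the tail motifs, and Ptpn6, the phosphatase SHP-1, followed, Lyn at -1.48 (SE 0.41, DESeq2 adjusted p = 0.0241) and Ptpn6 at -1.63 (SE 0.50, DESeq2 adjusted p = 0.0445). Without control 1 the values were -1.22 for Inpp5d, -1.13 for Tyrobp, -0.98 for Lyn and -0.95 for Ptpn6. All 4 are transcribed across blood cells, their groups did not overlap, and each was highest in control 1, as the neutrophil markers were.

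With single libraries left out, DESeq2 called Inpp5d in 5 of 6 fits (not without Sept2C111A library 3), Tyrobp in 2, and Lyn and Ptpn6 in 1 each, the one without control 2. The list's DESeq2 calls were 2, 1 and 0 without Sept2C111A libraries 1, 2 and 3 and 1, 7 and 1 without controls 1, 2 and 3, in fits that called 240, 650, 115, 332, 1767 and 339 genes in all. Ptpn11, the widely transcribed phosphatase SHP-2, was at 203, 247 and 213 CPM in Sept2C111A recipients and 201, 224 and 155 CPM in control recipients, a log2 difference of 0.19 (SE 0.18). Among 16 tested sialyltransferases the median was -0.04, with 0 calls by either tool, beside 0.0% of all genes by edgeR and 3.56% by DESeq2. Only 1 had an unadjusted edgeR p under 0.05, beside 15.0% of all genes. That gene was St3gal3, which adds the sialic acid of Siglec-F ligands in mouse airways, at 28.1, 25.8 and 28.8 CPM in Sept2C111A recipients and 16.2, 23.2 and 15.8 CPM in control recipients. It was named after its values were seen (log2 fold change 0.58, SE 0.19, edgeR adjusted p = 0.316). Chst1, which sulfates galactose and so shapes Siglec-F ligands, was at 4.56 to 11.0 CPM in Sept2C111A recipients and 6.21 to 16.4 CPM in control recipients.

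**Figure D4:**
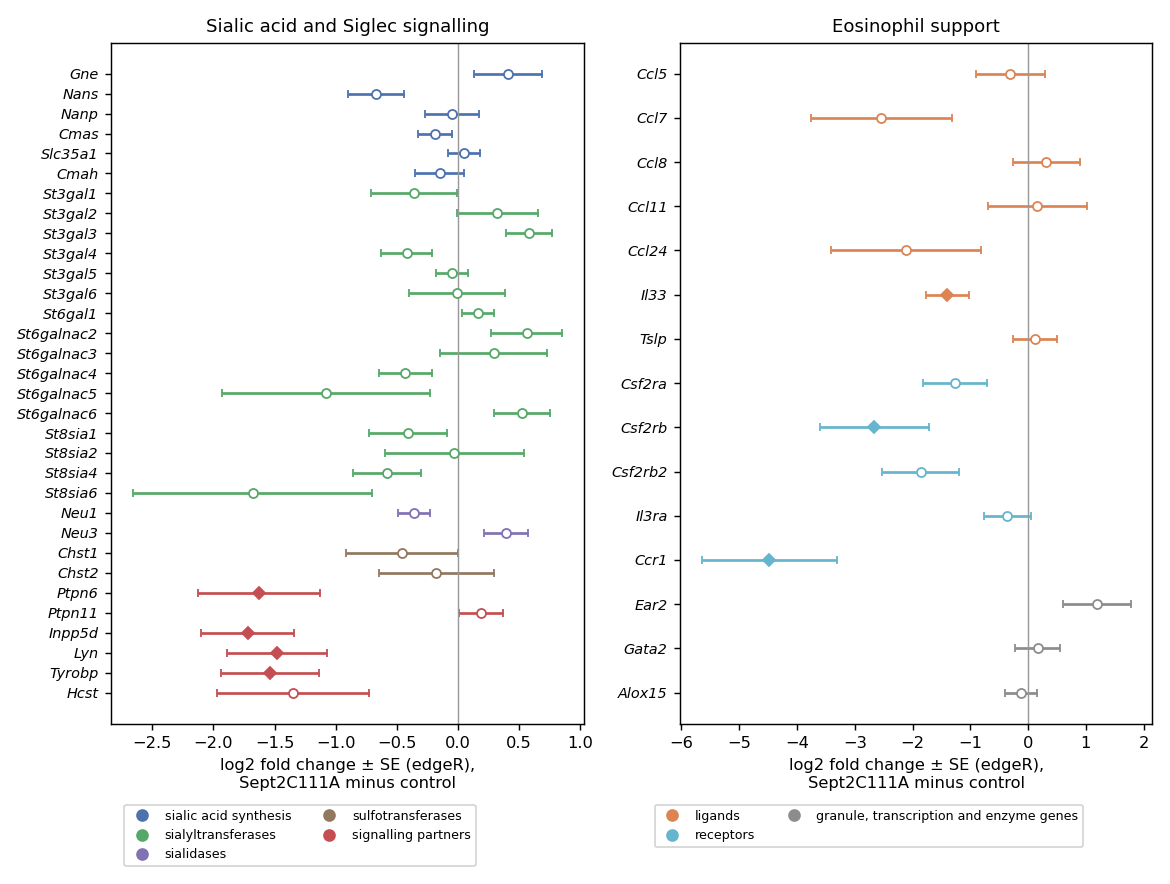
Log2 fold change (Sept2C111A minus control, edgeR) with SE for the tested genes of both lists, coloured by role, with filled diamonds for genes that DESeq2 called. The glycan enzymes mostly lie within 1 unit of 0, and the signalling partners other than Ptpn11 lie between -1.72 and -1.35.

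A list of 26 genes that recruit, sustain or make eosinophils was followed too, 24 of them with a row. Of 15 tested, edgeR called 0, with 4 lower and 0 higher at an unadjusted p under 0.05 (8.83% and 6.17% of all genes), and the median log2 fold change was -0.36, against 0.00 over all genes tested. DESeq2 called 4 lower and 0 higher of 18, beside 2.66% and 0.894% of all genes. The eotaxins overlapped: Ccl11 was at 23.1, 9.06 and 41.3 CPM in Sept2C111A recipients and 49.1, 6.89 and 9.74 CPM in control recipients, and Ccl24 at 2.99, 5.31 and 3.95 CPM against 49.1, 3.15 and 1.14 CPM in control recipients. Interleukin-5 itself was at 0.223 to 0.276 CPM in Sept2C111A recipients and 0.105 to 0.949 CPM in control recipients. Il33, an alarmin released by stressed stromal cells that acts on eosinophils and type 2 lymphocytes, was at 118, 104 and 81.3 CPM in Sept2C111A recipients and 405, 150 and 246 CPM in control recipients (-1.40 on the log2 scale, SE 0.37, adjusted p by DESeq2 = 0.0187).

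Ccr1, a chemokine receptor of neutrophils, monocytes and eosinophils, was at 8.46, 9.45 and 5.28 CPM in Sept2C111A recipients and 442, 24.6 and 52.6 CPM in control recipients (-4.48 on the log2 scale, SE 1.17, adjusted p by DESeq2 = 0.000286). Csf2rb, the shared signalling chain of the interleukin-5, interleukin-3 and GM-CSF receptors, was at 44.1, 19.9 and 27.2 CPM in Sept2C111A recipients and 466, 44.0 and 68.2 CPM in control recipients. Its groups overlapped by a narrow margin. On the log2 scale it differed by -2.66 (SE 0.95, adjusted p by DESeq2 = 0.0404), and by -0.87 without control 1. Cebpe, a transcription factor of granulocyte precursors, did not pass the filter and was at 0.105, 0.0 and 0.0556 CPM in Sept2C111A recipients and 2.90, 0.368 and 0.494 CPM in control recipients (DESeq2 adjusted p = 0.0399). Of the 4 DESeq2 calls, Ccr1 was made in all 6 fits that left out a library, while Il33, Csf2rb and Cebpe were made in 1 each, the one without control 2. Without control 1 the log2 fold change was -2.31 for Ccr1, -0.96 for Il33 and, by DESeq2, -3.00 for Cebpe, in place of -4.53. The list's calls were 1, 2 and 1 without Sept2C111A libraries 1, 2 and 3 and 1, 7 and 1 without controls 1, 2 and 3, and the 7 came in the fit with 1767 genes called in all. Control 1 was the highest library for Ccr1, Csf2rb, Il33 and Cebpe and for the neutrophil markers alike, and the part of neutrophils in these levels was not tested.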

How the data were processed

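The authors deposited expected counts, fractional and not normalised, in 1 file for each of 6 libraries. Bowtie2, RSEM 1.3.1, DESeq2 1.4.5 and build mm10 appear in the submitters' processing notes. The annotation, any filter and strandedness were not given in the sources used here. Per the labels' protocols, mRNA was enriched with oligo(dT) beads. In 1 Sept2C111A file the column heading bore another library number than the file, and the sample recorded for the file was used.

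Counts were rounded and tested with edgeR 4.0.16 under R 4.3.3 (filterByExpr, minimum count 10, TMM, two-sided quasi-likelihood test, Benjamini-Hochberg adjusted p under 0.05). DESeq2 1.42.0, on all genes with a count, served as the other test. CPM levels use unrounded counts, and SEs were computed as the log2 fold change over the square root of F. On simulated counts with 50 genes at each fold, edgeR (14320 genes) recovered 32 genes at 4-fold and 48 at 16-fold and made 4 false calls. DESeq2 (14466 genes) recovered 44 at 4-fold and 50 at 16-fold and made 56 false calls. Simulated counts were drawn gene by gene around a fixed mean per group, so no library stood apart over many genes as control 1 did. The recovery need not hold for these data, in which edgeR called 0 of 14466 genes. Replicates differed beyond sampling noise, at chi-square 50.2 to 237 per degree of freedom. The labels name no batch, and nothing says that replicates were separate animals, so p-values measure the spread between these libraries.

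Members and lists were chosen with earlier results of these data known. Named are all members, the 3 genes of smallest edgeR p in each list, genes of a list that DESeq2 called and the 5 genes most like Siglecf, leaving out gene models named Gm or Rik. Any other gene was chosen after its values were seen. Intervals and floors cover counting error only.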

Additional observations from a re-analysis of the deposited data

How the results depend on the processing

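The edgeR count of 0 genes held under RLE scaling, plain library totals, no filter and each left-out library, for all genes and for both lists. DESeq2 gave 549 genes, 4 of the sialic acid and Siglec signalling list and 4 of the eosinophil support list. The log2 fold change of Siglecf was -5.56 by DESeq2, -5.46 to -5.50 under the other scalings and without a filter, and -5.83 to -4.94 with a library left out. Of 128 alternative values 119 stayed within the spread between replicates or within 1.5 times a count, and 9 moved. Besides the DESeq2 counts these were Siglece and Cd33 without control 1, Epx by DESeq2 (-0.91 in place of -1.85, from 1 count in all), the genes nearest to Siglecf under a pseudocount of 1, and the mean eosinophil marker sum without Ear2 (0.955 CPM in Sept2C111A recipients and 2.33 CPM in control recipients), a setting chosen after seeing the data. With the replicate number as a block, edgeR called 0 genes and Siglecf was at -5.40. Ccr3, Epx and Prg2 did not pass the filter, so the other edgeR scalings gave them no value. Deviations of same-numbered libraries correlated at 0.0055, 0.15 and -0.17 across genes, and those of unlike number at -0.21 to 0.16. Same-numbered libraries thus did not stand out, though 3 libraries per group are too few to exclude a shared batch. Depth limits differences for Epx and Prg2, at or under 3 counts in all libraries except Prg2 in control 3 (6 counts), and the level of Siglecf in Sept2C111A recipients. Few counts limit Ccr3 and Il5ra as well. Ccr3 had 10 counts summed over Sept2C111A libraries and 82 over control libraries, 7.91-fold lower, with an exact interval for counting error of 4.09 to 17.1. Il5ra had 34 and 44 counts, a ratio of 0.801 with an exact interval of 0.497 to 1.28. For Siglece, Siglecg, Siglec1 and Cd33, and for Siglecf in control recipients, the spread between 3 libraries sets the precision.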

Other observations

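Control 3 held most of 2 transcripts of sialic acid biology, which were chosen after their values were seen. St8sia6, a sialyltransferase that makes ligands of mouse Siglec-E, was at 2.63, 1.44 and 2.34 CPM in Sept2C111A recipients and 1.12, 2.58 and 16.8 CPM in control recipients (log2 fold change -1.68, SE 0.98, edgeR adjusted p = 0.42). Siglec15 was at 0.318, 0.103 and 0.169 CPM in Sept2C111A recipients and 0.113, 0.263 and 3.27 CPM in control recipients. Atp6v0d2, a proton pump subunit of osteoclasts and macrophages, was at 21.8, 7.02 and 17.4 CPM in Sept2C111A recipients and 3.85, 6.31 and 43.9 CPM in control recipients, with control 3 again highest.

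All 6 mast cell markers had the higher mean in Sept2C111A recipients, and they summed to 51.3, 28.1 and 49.8 CPM there and to 32.0, 23.5 and 15.1 CPM in control recipients. Mcpt4, a mast cell protease, was at 15.0, 8.95 and 15.2 CPM in Sept2C111A recipients and 8.93, 5.63 and 3.07 CPM in control recipients (log2 fold change 1.15, SE 0.43, edgeR adjusted p = 0.32). The groups of Mcpt4 were separate, by a gap of 8.93 to 8.95 CPM, and those of the summed markers overlapped.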
